A study of Homo sapiens with 15 samples.

Results

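A set of 10 genes of steroid metabolism and response, written here as the 10 steroid genes, was followed through the differentiation of a human fat stem cell line and its later exposure to medium from breast cancer cells. They are CYP19A1, which encodes aromatase, the enzymes AKR1C1, AKR1C2, AKR1C3, HSD17B12, STS, SRD5A1, CYP1B1 and HSD11B1, and the estrogen receptor gene ESR1. All 10 had a probe set among the 17687 genes measured. They were chosen around CYP19A1 because its rise in the group labelled DED was among the largest of all genes, so every difference between DED and another group is given below as a description with no test, and the tests on these genes are confined to MA against MSC. ASC52, or ASC52htert, is an adipose-derived mesenchymal stem cell line immortalised with telomerase, and the 3 groups of 5 arrays came from this 1 line. The group MSC was the undifferentiated line, seeded in MesenPRO RS medium. The group MA, called mature adipocytes in the labels, was put into StemPRO adipogenic medium 3 days after seeding, kept there for 14 days and then held for 7 days in RPMI with 10% fetal bovine serum. The group DED, called dedifferentiated adipocytes, had the same differentiation and then spent the 7 days in RPMI with 10% fetal bovine serum that MDA-MB-231 cells, from a human breast carcinoma, had conditioned. Nothing in the labels says that the arrays came from separate cultures, so each p-value rests on the spread among these samples alone, and that spread may be technical.

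Fat tissue makes few steroids from cholesterol but converts those that reach it. Aromatase turns androgens into estrogens, sulfatase and reducing hydroxysteroid dehydrogenases supply it with substrate or raise the potency of its product, and other enzymes remove active hormones. In the stromal cells of fat, CYP19A1 is transcribed from several alternative first exons, some of them controlled by glucocorticoids with cytokines of the interleukin 6 family and others by prostaglandin E2 and cyclic AMP. Estrogen made in breast fat is known as a source of hormone for breast tumours after the menopause.

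The values are log2 intensities after robust multi-array averaging (RMA), so a difference of 1 stands for a doubling of signal, and levels are compared between groups for 1 gene but not between genes. Background was read from 612 negative control probe sets, whose median was 4.80. Their 95th percentile was 8.31, and where a group lies under it the size of a difference depends on background. Markers bore out the fat cell label, with the mean of 8 adipocyte markers at 5.29 to 5.50 in the MSC arrays, 11.96 to 12.14 in MA and 9.46 to 11.02 in DED, and all 8 rose in MA and fell in DED against MA. The mean of 8 mesenchymal stem cell markers lay at 11.71 to 12.04 in MSC, 10.91 to 11.22 in MA and 10.79 to 11.18 in DED. DED arrays 1 and 3 were the least alike of any pair within a group (r = 0.982 across genes), and DED array 1 held the highest adipocyte marker mean and DED array 3 the lowest. The mean of 8 epithelial and carcinoma markers ran from 5.53 to 5.75 over all 15 arrays, and that of 5 endothelial markers lay at 6.09 to 6.34 in MSC, 5.35 to 5.54 in MA and 5.16 to 5.51 in DED. In that list TEK alone passed the test in MA against MSC, at 10.62 ± 0.10 in MSC and 6.65 ± 0.14 in MA, and the other 4 genes were under 8.31 in every group. For 8 macrophage and leukocyte markers the mean lay at 6.17 to 6.54 in MSC, 6.41 to 6.67 in MA and 6.97 to 7.30 in DED. Of these 8, CD163 and CD14 rose in DED against MA and 1 fell, and the pan-leukocyte gene PTPRC was 5.51 ± 0.32 in MA and 5.76 ± 0.22 in DED. The part of these markers in the results was not tested, and in bulk RNA fewer cells of a type cannot be told apart from less RNA per cell.

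Upstream sequences were taken from the RefSeq promoter table (GRCh38.p14) for the 8 genes that it holds, over 250 bases before each start. CYP1B1 and HSD17B12 are named only. CYP19A1 (chr15:51208057-51338596, minus strand) had 7 starts in the table, the most distal of them 75.5 kb before the last. The probe set gives 1 value for the whole gene, so which start was used was not measured. Motifs of the factors discussed below were searched on both strands: TTCNNNGAA (the GAS element bound by STAT factors), AAAGGTCA (the NBRE of the NR4A receptors), CAAGGTCA (the site of NR5A receptors, which shares AAGGTCA with the NBRE), TGACGTCA (the cyclic AMP response element, CRE), TGACG (the shorter site within the CRE), TGACNNNGC (the antioxidant response element of NRF2), TGANTCA (AP-1) and GCGTG (the core bound by the aryl hydrocarbon receptor). In the 7 CYP19A1 windows the matches were those shown here in stretches of 30 bases, which carry the motif in capitals.
CYP19A1 last start, NR5A site, chr15:51243143-51243172, minus strand: tgagactctacCAAGGTCAgaaatgctgca
CYP19A1 last start, short CRE site on the opposite strand, chr15:51243219-51243248, minus strand: attgggaatgcaCGTCActctacccactca
CYP19A1 start 0.886 kb before the last, GAS element, chr15:51244132-51244161, minus strand: tatgcagtgtTTCAAGGAAtacacagagcc
CYP19A1 start 0.886 kb before the last, AP-1, chr15:51243946-51243975, minus strand: gcatttaatgaTGACTCActctttcctcac
CYP19A1 start 45.3 kb before the last, AP-1, chr15:51288391-51288420, minus strand: tggagaagctgTGACTCAagtagcagctgt

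Among the 34788 distinct windows of this length in the table, the NR5A site was found in 1.15%, the GAS element in 6.57%, AP-1 in 6.59% and the short CRE site in 21.2%. The full CRE (1.64% of windows), the NBRE (1.04%), the antioxidant element (10.9%) and the aryl hydrocarbon receptor core (32.2%) had no match in the CYP19A1 windows. Of the 5 STS windows, 2 held a GAS element, 1 an NBRE, 1 an antioxidant element and 2 the aryl hydrocarbon receptor core. Of the 6 ESR1 windows, 2 held a GAS element, 1 a short CRE site and 1 the aryl hydrocarbon receptor core, which the SRD5A1 window held too, while the HSD11B1 window had no match. A match is a description of letters, not a site shown to be bound.

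AKR1C1, AKR1C2 and AKR1C3 lie within 144.3 kb on chromosome 10 (chr10:4963415-5107686), and their upstream windows are shown because the 3 genes had like patterns in the arrays. Capitals mark the 2 runs of at least 12 letters common to all 3 windows.
AKR1C1, chr10:4963165-4963414, plus strand: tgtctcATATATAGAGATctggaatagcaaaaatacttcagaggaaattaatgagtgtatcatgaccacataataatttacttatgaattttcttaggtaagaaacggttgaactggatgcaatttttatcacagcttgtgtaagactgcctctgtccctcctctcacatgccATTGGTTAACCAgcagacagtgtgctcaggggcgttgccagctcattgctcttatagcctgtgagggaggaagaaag
AKR1C2, chr10:5003858-5004107, minus strand: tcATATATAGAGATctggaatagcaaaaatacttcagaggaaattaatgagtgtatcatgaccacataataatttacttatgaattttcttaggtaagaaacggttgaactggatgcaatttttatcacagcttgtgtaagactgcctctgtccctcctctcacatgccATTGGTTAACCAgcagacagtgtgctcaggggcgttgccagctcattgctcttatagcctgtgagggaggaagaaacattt
AKR1C3, first of its 2 starts, chr10:5048531-5048780, plus strand: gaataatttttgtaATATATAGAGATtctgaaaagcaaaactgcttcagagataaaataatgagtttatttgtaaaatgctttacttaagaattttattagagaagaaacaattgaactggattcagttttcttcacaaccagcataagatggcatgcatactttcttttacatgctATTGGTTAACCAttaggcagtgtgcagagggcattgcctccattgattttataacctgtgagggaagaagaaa

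In a global alignment 245 of the 250 bases (98%) were identical between the AKR1C1 and AKR1C2 windows, 185 (74%) between AKR1C1 and AKR1C3, and 183 (73.2%) between AKR1C2 and AKR1C3. Each of the 2 common runs was found in 5 of the 34788 windows (0.014%), on either strand. These windows include the AKR1C windows that the runs were taken from, so the share is no independent measure of rarity. The run nearer the start is also in the second AKR1C3 window. None of the 8 motifs had a match in the AKR1C1 and AKR1C2 windows or in either AKR1C3 window, which says only that these letters are not in these stretches.

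The first comparison, MA against MSC, addressed the differentiation step. Differences in medium and time in culture cannot be told apart from it. Of the enzymes that interconvert steroids AKR1C1 rose by 3.36 on the log2 scale, HSD11B1 by 3.32, AKR1C2 by 3.11, AKR1C3 by 2.94, STS by 1.73 and HSD17B12 by 1.23, while the estrogen hydroxylase CYP1B1 fell by 2.31. CYP19A1 rose by 0.72 at a level near background. SRD5A1 and ESR1 did not pass the test. Thus 7 of the 10 steroid genes rose and 1 fell by limma at an adjusted p under 0.05, where 15.4% of all genes rose and 17.6% fell (33.0% in either direction), and their median log2 difference was 1.48 against -0.002 over all genes. In 6 of the 10 the MA arrays all lay above the MSC arrays and in 1 below them, as they did in 12.4% and 14.6% of all genes (27.0% in either direction). The 10 genes were chosen with earlier results of these data known, and the MA arrays also enter the contrast behind the choice. These counts and the median thus describe the chosen genes, and no excess over all genes is read from them. AKR1C1, AKR1C2 and AKR1C3 are among the 7 rises, and their probe sets may take up transcripts of each other.

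The second comparison, DED against MA, set conditioned against control medium. CYP19A1 was higher in DED by 4.61 and CYP1B1 by 2.35, AKR1C2 was lower by 2.58, AKR1C1 by 2.27, AKR1C3 by 1.49, STS by 1.24 and HSD17B12 by 0.52, and the DED and MA arrays of these 7 genes did not overlap. HSD11B1, SRD5A1 and ESR1 overlapped between the 2 groups. Groups without overlap were found for 2 of the 10 as higher and 5 as lower, beside 8.61% and 9.48% of all genes (18.1% in either direction). Nothing is read from these counts, since the genes were chosen on this contrast. Against MSC, DED was higher by 5.33 for CYP19A1 and 3.71 for HSD11B1, and 5 of the 10 genes lay above MSC without overlap and none below, beside 12.4% and 12.7% of all genes (25.1% in either direction). There 7 of the 10 passed the limma threshold as higher and 1 as lower, beside 17.1% and 16.4% of all genes (33.4% in either direction), and nothing is read from this either. These comparisons share arrays: DED enters both comparisons of DED, and MA enters both steps.

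**Figure D1:**
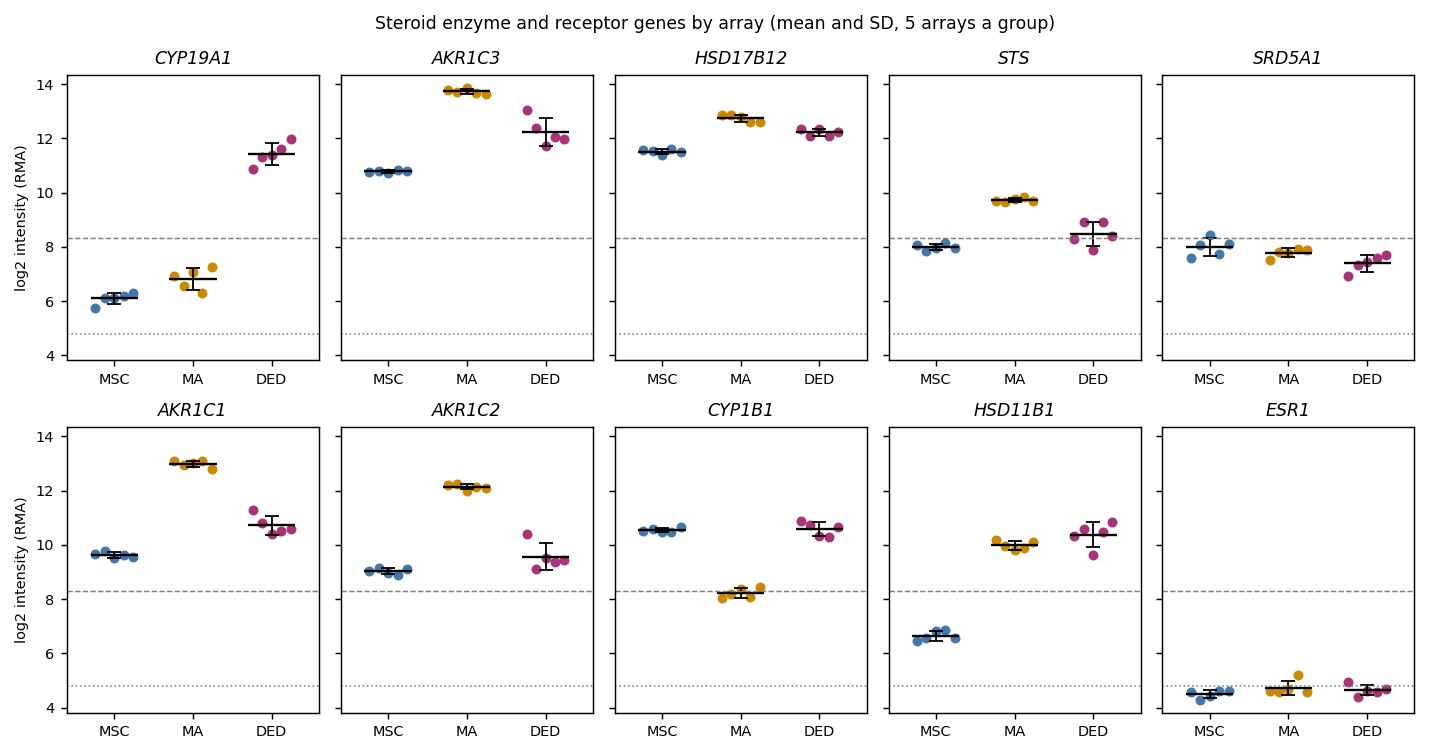
Log2 intensity (vertical axis) of each of the 10 steroid genes in MSC, MA and DED, with 1 point per array, the group mean as a bar and the SD as whiskers (5 arrays a group). The dashed and dotted grey lines are the 95th percentile (8.31) and the median (4.80) of the negative controls. CYP19A1 is above the dashed line in DED alone, and ESR1 lies near the dotted line in every group.

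Aromatase catalyses the last step of estrogen synthesis. CYP19A1 read 5.74, 6.13, 6.13, 6.20 and 6.28 in MSC arrays 1 to 5 and 6.91, 6.56, 7.07, 6.28 and 7.25 in MA arrays 1 to 5. In DED arrays 1 to 5 it read 10.86, 11.31, 11.38, 11.59 and 11.97. The lowest DED array was above the highest MA array by more than the whole range of either group, whereas MSC and MA touched at 6.28. The MA mean of 6.81 ± 0.39 was above the MSC mean of 6.10 ± 0.21 (SD, n = 5) by 0.72 (SE 0.19, limma adjusted p = 0.0061), and the adjusted p ran from 0.0015 to 0.023 over the alternatives tried. Both means lay over 4.80 and under 8.31, so background bears on the size of this rise and on that of the DED difference (4.61, SE 0.19). Without DED arrays 1 and 3 the DED minus MA difference was 4.81.

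AKR1C3 reduces androstenedione to testosterone and estrone to estradiol, and it also makes prostaglandin F. AKR1C3 read 10.77, 10.81, 10.71, 10.84 and 10.80 in MSC, 13.79, 13.69, 13.87, 13.66 and 13.62 in MA and 13.04, 12.38, 11.71, 12.06 and 11.97 in DED. The 3 groups did not overlap, with DED between the others and spread over a wider range than either. The rise from 10.79 ± 0.05 in MSC to 13.73 ± 0.10 in MA was 2.94 (SE 0.17, limma adjusted p = 3.4e-11), a fold of 7.67. In DED the mean was 12.23 ± 0.51, lower than MA by 1.49 (SE 0.17) and higher than MSC by 1.45 (SE 0.17).

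HSD17B12 (chr11:43556721-43856615) is a reductase of the endoplasmic reticulum that takes part in fatty acid elongation and can form estradiol. It read 11.37 to 11.59 in MSC, 12.59 to 12.87 in MA and 12.09 to 12.36 in DED. An order of MSC, DED and MA held without overlap. The rise in MA was 1.23 (SE 0.10, limma adjusted p = 5.8e-09), and the DED mean of 12.22 ± 0.13 was 0.52 (SE 0.10) under that of MA and 0.71 (SE 0.10) over that of MSC.

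STS, the steroid sulfatase, releases estrone and dehydroepiandrosterone from their sulfates, and its gene lies at chrX:7147290-7354641. STS read 8.08, 7.84, 7.96, 8.14 and 7.94 in MSC, 9.69, 9.65, 9.77, 9.83 and 9.68 in MA and 8.28, 8.91, 7.90, 8.92 and 8.40 in DED. MA stood above both other groups in every array, and DED overlapped MSC, its array 3 being within the MSC range. The rise in MA was 1.73 (SE 0.16, limma adjusted p = 2.1e-08), from a level in MSC under 8.31. The DED mean of 8.48 ± 0.44 was lower than that of MA by 1.24 (SE 0.16) and above that of MSC by 0.49 (SE 0.16), or by 0.75 without DED arrays 1 and 3.

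SRD5A1 (chr5:6633440-6674386) reduces testosterone to dihydrotestosterone. It averaged 7.99 ± 0.32 in MSC, 7.78 ± 0.16 in MA and 7.40 ± 0.31 in DED, all under 8.31, and the ranges of the 3 groups overlapped (7.60 to 8.42, 7.52 to 7.92 and 6.91 to 7.71). MA minus MSC was -0.20 (SE 0.16, limma adjusted p = 0.38), and DED minus MA was -0.39 (SE 0.16), or -0.24 without DED arrays 1 and 3.

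AKR1C1 inactivates progesterone, and AKR1C2 inactivates dihydrotestosterone. AKR1C1 read 9.67, 9.76, 9.50, 9.63 and 9.57 in MSC, 13.08, 12.93, 13.00, 13.10 and 12.80 in MA and 11.28, 10.81, 10.41, 10.50 and 10.58 in DED. AKR1C2 read 9.04, 9.15, 8.98, 8.88 and 9.11 in MSC, 12.22, 12.24, 11.99, 12.14 and 12.11 in MA and 10.40, 9.12, 9.50, 9.35 and 9.43 in DED. In both genes every MA array was above every other array. In AKR1C1 DED kept clear of MSC, while in AKR1C2 DED array 2 was within the MSC range.

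The rise of AKR1C1 in MA was 3.36 (SE 0.14, limma adjusted p = 1.4e-13), a fold of 10.2, and that of AKR1C2 was 3.11 (SE 0.17, limma adjusted p = 1.2e-11), a fold of 8.62. DED was lower than MA by 2.27 (SE 0.14) for AKR1C1 and by 2.58 (SE 0.17) for AKR1C2, and higher than MSC by 1.09 (SE 0.14) and 0.53 (SE 0.17). Without DED arrays 1 and 3 AKR1C2 was 0.27 above MSC and AKR1C1 was 1.00 above it. DED array 1 was the highest of its group in AKR1C1, AKR1C2 and AKR1C3 alike, and it also had the highest adipocyte marker mean (11.02, against 9.46 to 10.05 in the other 4). AKR1C4, the liver member of the cluster (chr10:5196837-5218949), lay near the median of the negative controls, at 4.55 ± 0.29 in MSC, 4.97 ± 0.21 in MA and 4.62 ± 0.36 in DED. Since AKR1C genes have near-identical coding sequences, their probe sets may take up transcripts of each other, and values of single AKR1C genes are uncertain to that extent.

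**Figure D2:**
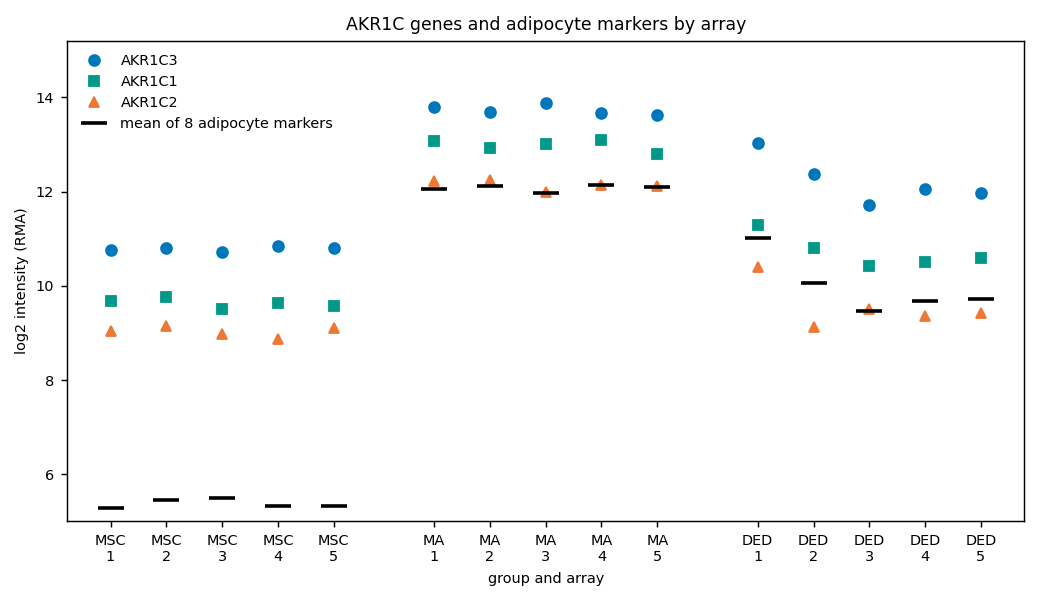
Log2 intensity (vertical axis) of AKR1C1, AKR1C2 and AKR1C3 in each of the 15 arrays (horizontal axis), with the mean of 8 adipocyte markers as a black bar. All 3 genes and the marker mean are highest in MA, and within DED they are highest in array 1, where the marker mean is 11.02.

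CYP1B1 (chr2:38067509-38076151) hydroxylates estradiol to catechol estrogens and is induced by the aryl hydrocarbon receptor. It read 10.52, 10.57, 10.49, 10.46 and 10.64 in MSC, 8.05, 8.19, 8.39, 8.07 and 8.45 in MA and 10.89, 10.74, 10.33, 10.28 and 10.67 in DED. MA stood alone below the other groups, which overlapped, and the DED range enclosed the MSC range. The fall in MA was 2.31 (SE 0.13, limma adjusted p = 1.3e-11), a fold of 4.95, to a mean of 8.23 ± 0.18 that lay just under 8.31. DED was higher than MA by 2.35 (SE 0.13), and DED minus MSC was 0.05 (SE 0.13).

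HSD11B1 (chr1:209686179-209734929) regenerates active cortisol from cortisone, and fat is one of its main sites. It read 6.44, 6.57, 6.84, 6.85 and 6.57 in MSC, 10.16, 9.95, 9.80, 9.88 and 10.09 in MA and 10.33, 10.59, 9.62, 10.47 and 10.83 in DED. Every MA and DED array was above every MSC array, and 4 of the 5 DED arrays were above all MA arrays while DED array 3 was below them. The rise in MA was 3.32 (SE 0.17, limma adjusted p = 4.2e-12), from a level under 8.31. DED minus MA was 0.39 (SE 0.17), and 0.65 without DED arrays 1 and 3. Of the 7 steroid genes that rose in MA, HSD11B1 and CYP19A1 had a DED mean that was not under the MA mean.

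ESR1 (chr6:151656672-152129619) encodes estrogen receptor alpha. It averaged 4.51 ± 0.15 in MSC, 4.73 ± 0.26 in MA and 4.64 ± 0.19 in DED, under the negative control median in all 3 groups. The groups overlapped, and MA minus MSC was 0.21 (SE 0.13, limma adjusted p = 0.25). The arrays thus gave no signal for ESR1 above background in any group.

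**Figure D3:**
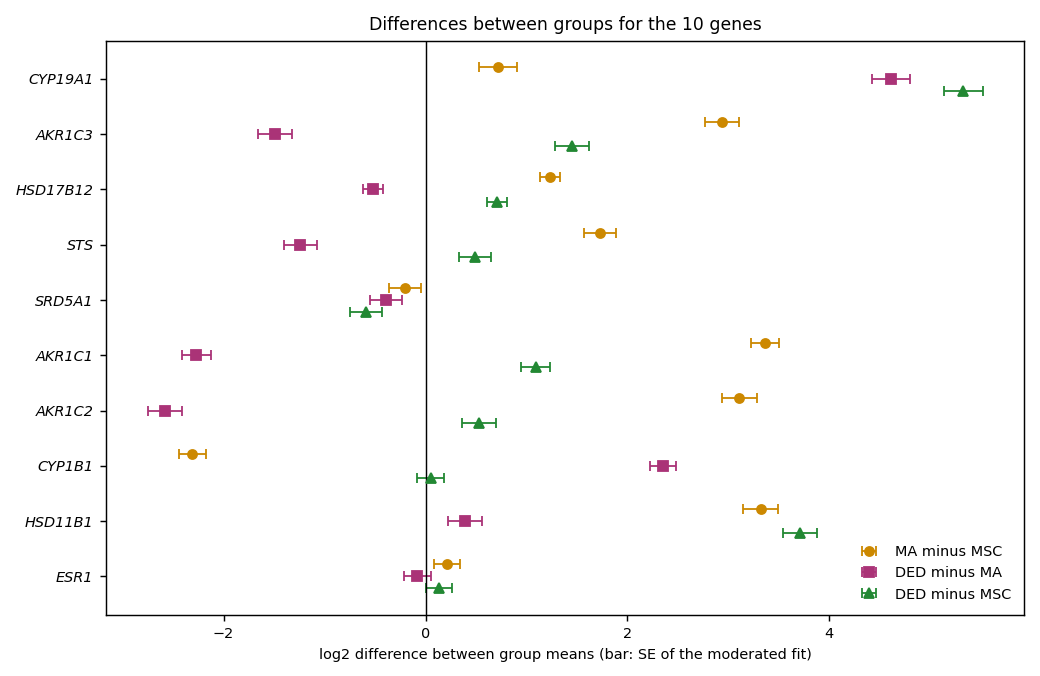
Log2 differences (horizontal axis) of the 10 steroid genes between group means, as MA minus MSC (circles), DED minus MA (squares) and DED minus MSC (triangles), with the SE of the moderated fit. The AKR1C genes, HSD17B12 and STS lie to the right of 0 for MA minus MSC and to the left for DED minus MA, CYP1B1 lies the other way round, and CYP19A1 is far to the right in both differences of DED.

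By Pearson correlation over the 15 arrays, among the 7013 other genes with a group mean at or over 8.31, the 5 genes most like CYP19A1 were CCNL1 (r = 0.991), CD163 (0.986), NNMT (0.984), RAB31 (0.983) and ELL2 (0.981). These arrays share the 3 groups, so r mostly follows the group means. CCNL1, a cyclin of the splicing machinery, averaged 9.84 ± 0.07 in MSC, 10.21 ± 0.10 in MA and 12.05 ± 0.21 in DED. CD163, a hemoglobin scavenger receptor, was 6.19 ± 0.29, 6.66 ± 0.33 and 11.64 ± 0.69. NNMT, nicotinamide N-methyltransferase, was 12.84 ± 0.22, 13.44 ± 0.14 and 15.44 ± 0.13. Without DED arrays 1 and 3, CCNL1, CD163 and RAB31 remained among the 5 and SLC41A1 (r = 0.994) and P2RX7 (0.987) joined them.

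Other genes of steroid metabolism and signalling were read from 9 lists of 153 genes, of which 131 were measured and the other 22 are not analysed here. In MA against MSC 37 of the 131 rose and 17 fell, and in DED against MA 22 rose and 24 fell. Over all genes the shares were 15.4% and 17.6% in the first comparison and 12.9% and 13.0% in the second. In DED against MSC they were 17.1% and 16.4%. The median differences of the 131 genes were 0.10 and 0.00, against -0.002 and 0.018 over all genes. The lists were chosen with earlier results of these data known, so no excess over these shares is read from the counts of any list. In 79 of the 131 all group means were under 8.31, so many of these genes were at or near background. Such low signal was not particular to the lists, since 7014 of all 17687 genes had a group mean at or over 8.31. For genes outside the 10 the comparison of DED with MA was tested like the other.

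In synthesis from cholesterol 9 of 11 measured genes were under 8.31 in all 3 groups. STAR, which brings cholesterol into mitochondria, averaged 7.17 ± 0.14 in MSC, 7.20 ± 0.13 in MA and 7.27 ± 0.09 in DED. CYP11A1, the side chain cleavage enzyme, was 5.72 ± 0.18, 5.47 ± 0.12 and 5.88 ± 0.25, and the androgen-forming CYP17A1 was 4.39 ± 0.21, 4.72 ± 0.30 and 4.68 ± 0.22. Of the 11 genes CYB5A, the cytochrome b5 that assists CYP17A1 and many other enzymes, was the one that rose in MA (3.16, SE 0.14, limma adjusted p = 2.5e-13). In DED against MA 3 fell, among them CYB5A (-1.27, SE 0.14) and the mitochondrial TSPO (-1.30, SE 0.14, limma adjusted p = 5.3e-07). CYP11A1 passed as higher there (0.41, SE 0.13, limma adjusted p = 0.020), far under 8.31, and lost the call without MA array 3 (0.054) or DED array 5 (0.062). In MA the counts were 2 rises without MA array 3 or 4, and 1 fall without MA array 5.

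Among 17 other hydroxysteroid dehydrogenases, aldo-keto reductases and steroid reductases 3 rose and 2 fell in MA, with a median of 0.23, and 5 fell in DED against MA, with a median of -0.20. The 3 that rose were HSD17B4 (1.69, SE 0.11), which oxidises estradiol and takes part in peroxisomal fatty acid oxidation, HSD17B11 (1.56, SE 0.18), a lipid droplet enzyme, and DHRS11 (1.22, SE 0.16, under 8.31 in every group), with limma adjusted p-values of 2.0e-10, 7.0e-07 and 3.1e-06. All 3 fell in DED against MA, with differences of -1.37 (SE 0.11), -1.15 (SE 0.18) and -0.76 (SE 0.16) and limma adjusted p-values from 1.0e-08 to 0.0010. CBR1, a carbonyl reductase, fell in both steps, by 0.44 (SE 0.11) and then by 0.99 (SE 0.11). HSD17B1, the estradiol-forming enzyme of the ovary, averaged 7.34 ± 0.12 in MSC, 7.59 ± 0.36 in MA and 7.53 ± 0.20 in DED, and HSD17B2, which inactivates estradiol, was 6.82 ± 0.27, 6.50 ± 0.15 and 6.31 ± 0.23. Neither passed the test in MA against MSC or DED against MA, except that HSD17B2 did so in MA without MSC array 2 (adjusted p = 0.036).

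Of 19 genes of sulfation, glucuronidation and steroid transport 3 rose and 2 fell in MA, and 1 rose and 2 fell in DED against MA, with medians of 0.01 and -0.06. Among those with a group mean over 8.31 were the uptake carrier SLCO3A1, which rose in MA by 0.98 (SE 0.15, limma adjusted p = 3.2e-05), the exporter ABCC4, which fell by 1.79 (SE 0.13, limma adjusted p = 5.8e-10), and the sulfate donor synthase PAPSS2, which rose in DED by 0.91 (SE 0.13, limma adjusted p = 1.5e-05). SULT1E1, the estrogen sulfotransferase, averaged 4.84 ± 0.27 in MSC, 5.08 ± 0.17 in MA and 4.82 ± 0.15 in DED. Counts at low level depended on single arrays: 1 rose in MA without MA array 2, 3 or 4, and of the 2 that fell in DED 0 passed without MA array 2, 3 or 4 or DED array 2, 4 or 5 and 1 without MA array 1 or 5 or DED array 3.

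Beside CYP1B1, 8 genes of estrogen hydroxylation and of the aryl hydrocarbon receptor were measured, of which 4 rose in MA (median 0.38) and 1 rose and 2 fell in DED against MA (median 0.11). AHR, the receptor itself, averaged 11.44 ± 0.04 in MSC, 12.51 ± 0.08 in MA and 12.80 ± 0.52 in DED, and its target TIPARP was 11.06 ± 0.16 in MA and 10.34 ± 0.11 in DED. AHR rose in MA by 1.07 (SE 0.17, limma adjusted p = 4.9e-05) and TIPARP by 2.07 (SE 0.14, limma adjusted p = 2.3e-10), in the comparison in which CYP1B1 fell. TIPARP then fell in DED by 0.73 (SE 0.14, limma adjusted p = 4.3e-04) where CYP1B1 was higher. CYP1A1, another classical target, stayed near background at 5.13 ± 0.23, 5.33 ± 0.11 and 5.11 ± 0.21. CYP7B1, which hydroxylates dehydroepiandrosterone and oxysterols, rose in DED from 6.52 ± 0.41 in MA to 9.34 ± 0.47 (2.82, SE 0.21, limma adjusted p = 3.4e-09), with MSC at 6.44 ± 0.26. Its DED arrays (8.57 to 9.71) did not overlap the MA arrays (6.14 to 7.21).

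Of 8 measured partners and receptors of the glucocorticoid step 4 rose and 1 fell in MA (median 0.35), and 1 rose and 2 fell in DED against MA (median -0.20). The single rise in DED, that of the transcription factor CEBPD (0.36, SE 0.12, limma adjusted p = 0.027, under 8.31), was lost without MA array 1 or DED array 4. H6PD, which supplies the NADPH that drives HSD11B1 in the reducing direction, averaged 10.47 ± 0.13 in MSC, 11.36 ± 0.06 in MA and 11.09 ± 0.21 in DED, and it rose in MA by 0.90 (SE 0.11, limma adjusted p = 1.7e-06). NR3C1, the glucocorticoid receptor, fell in MA by 0.79 (SE 0.13, limma adjusted p = 4.7e-05), from 11.71 ± 0.13 to 10.92 ± 0.19, and was 10.81 ± 0.24 in DED. HSD11B2, which inactivates cortisol in the kidney, was 4.85 ± 0.28, 5.71 ± 0.43 and 4.85 ± 0.19, all under 8.31. It passed as higher in MA than in MSC (0.86, SE 0.18, limma adjusted p = 6.2e-04) and as lower in DED than in MA (-0.87, SE 0.18, limma adjusted p = 9.0e-04). H6PD in DED against MA was at -0.27 (SE 0.11, limma adjusted p = 0.084), and passed without DED array 4 (0.027), with quantile normalization and with dim genes left out.

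Receptors for sex steroids were near background beside ESR1. ESR2 averaged 4.22 ± 0.25 in MSC, 4.17 ± 0.23 in MA and 4.08 ± 0.28 in DED, and PGR, the progesterone receptor and a classical estrogen target, was 5.28 ± 0.29, 4.91 ± 0.49 and 4.94 ± 0.21. The membrane receptor GPER1 fell in MA from 6.50 ± 0.53 to 4.92 ± 0.42 (-1.57, SE 0.28, limma adjusted p = 1.2e-04), and was 4.44 ± 0.61 in DED, all under 8.31. It passed as lower in DED than in MA without DED array 3 (limma adjusted p = 0.042), which made 2 falls there in place of 1. In the list of 10 receptors and coregulators 2 rose and 2 fell in MA (median -0.06), and 1 rose and 1 fell in DED against MA (median 0.03). The coactivator NCOA1 rose in MA by 1.20 (SE 0.13, limma adjusted p = 2.5e-07) and fell in DED by 0.52 (SE 0.13, limma adjusted p = 0.0045).

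Of 17 measured estrogen response genes, a list drawn largely from breast cancer cells, 3 rose and 6 fell in MA (median 0.00), and 5 rose and 3 fell in DED against MA (median 0.11). The classical targets GREB1 and TFF1 were under 4.80 in all 3 groups. In DED the rises included the tumour protein gene TPD52L1 by 2.55 (SE 0.38), the ubiquitin ligase SIAH2 by 1.37 (SE 0.16) and IGFBP4, an inhibitor of insulin-like growth factors, by 0.68 (SE 0.10). The carbonic anhydrase CA12 fell by 1.35 (SE 0.13), the chemokine CXCL12 by 0.99 (SE 0.17) and EGR3 by 0.99 (SE 0.13), and the limma adjusted p-values of these 6 ran from 1.6e-07 to 1.8e-04. The other 2 of the 5 rises were XBP1 (0.81, SE 0.15, limma adjusted p = 2.7e-04) and CTSD (0.44, SE 0.16, limma adjusted p = 0.048). CTSD lost the call in 14 of 26 alternatives. TPD52L1 varied within DED (9.50 ± 1.25, against 6.95 ± 0.30 in MA). EGR3 had its mean under 8.31 in every group.

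The list of factors known to control CYP19A1 in fat stroma held 30 measured genes, of which 12 rose and 2 fell in MA (median 0.20), and 8 rose and 4 fell in DED against MA (median 0.09). Of the 2 that fell in MA 1 passed without MSC array 4 or 5 or MA array 3. On the cytokine side, IL6 rose in DED from 4.89 ± 0.22 to 7.65 ± 0.20 (2.76, SE 0.15, limma adjusted p = 4.6e-11), under 8.31 in every group mean. OSMR, a receptor of the same family, rose by 1.32 (SE 0.13, limma adjusted p = 1.8e-07) and the transcription factor STAT3 by 1.08 (SE 0.13, limma adjusted p = 1.6e-06), both well above background. STAT3 averaged 12.53 ± 0.14 in MSC, 13.22 ± 0.14 in MA and 14.30 ± 0.27 in DED. In the same list JAK1 fell in DED by 0.51 (SE 0.12, limma adjusted p = 0.0044), and SOCS3 (0.00, SE 0.12) did not pass. IL6R, the receptor chain for interleukin 6, rose in MA by 1.76 (SE 0.14) and fell in DED by 0.74 (SE 0.14, limma adjusted p = 5.6e-04). All 3 group means of IL6R were under 8.31.

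On the cyclic AMP side, the orphan receptors NR4A3 and NR4A1 rose in DED by 2.63 (SE 0.19, limma adjusted p = 1.6e-09) and 1.03 (SE 0.13, limma adjusted p = 3.2e-06), and the CREB coactivator CRTC3 by 1.05 (SE 0.11, limma adjusted p = 5.2e-07). NR4A3 averaged 5.70 ± 0.29 in MSC, 6.49 ± 0.20 in MA and 9.12 ± 0.47 in DED. For NR4A1 the means were 6.12 ± 0.06, 6.60 ± 0.14 and 7.63 ± 0.30, all under 8.31. Their relatives in the list did not pass in DED against MA. These were NR4A2 (-0.01, SE 0.13), under 4.80 in every group, CRTC1 (0.10, SE 0.15) and CRTC2 (0.45, SE 0.19, limma adjusted p = 0.091). PTGER2, a prostaglandin E2 receptor, rose in MA from 6.83 ± 0.49 to 10.65 ± 0.21 (3.82, SE 0.22, limma adjusted p = 2.9e-11) and fell in DED to 8.82 ± 0.48 (-1.83, SE 0.22, limma adjusted p = 2.5e-06). PTGS2, which makes the precursor of prostaglandin E2, was 6.31 ± 0.18, 6.63 ± 0.18 and 6.79 ± 0.32, and NR5A2, a receptor known to bind the proximal CYP19A1 promoter, was 4.19 ± 0.54, 4.16 ± 0.24 and 4.43 ± 0.23. PTGS2 and NR5A2 did not pass the test in DED against MA. BRCA1 fell in MA by 1.45 (SE 0.22, limma adjusted p = 2.3e-05), with its mean under 8.31 in every group, and did not pass in DED against MA (-0.36, SE 0.22). NR2F1, an orphan receptor of the COUP-TF family, rose in MA by 3.27 (SE 0.17, limma adjusted p = 3.7e-12). It rose again in DED against MA by 0.54 (SE 0.17, limma adjusted p = 0.020), a call lost in 3 of 26 alternatives.

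The AKR1C genes are known targets of the antioxidant factor NRF2, and 11 other targets were read beside them. In MA 5 rose and 2 fell (median 0.18), and in DED 4 rose and 2 fell (median 0.25). The malic enzyme ME1 rose in MA by 2.31 (SE 0.16) and fell in DED by 0.80 (SE 0.16), as AKR1C genes were higher and then lower. The cystine carrier SLC7A11 fell in MA by 3.66 (SE 0.25) and rose in DED by 3.76 (SE 0.25), and the glutathione synthesis gene GCLM fell by 1.42 (SE 0.29) and rose by 1.79 (SE 0.29). The thioredoxin reductase TXNRD1 rose in both, by 1.36 (SE 0.22) and 0.80 (SE 0.22), so the listed targets did not share 1 pattern. DED array 3 stood apart, with a mean of 10.12 over the 11 targets against 9.09 to 9.48 in the other 4 arrays, and without it the DED minus MA difference of TXNRD1 was 0.52. The DED means were 11.94 ± 0.77 for SLC7A11, 9.67 ± 0.90 for GCLM and 14.14 ± 0.69 for TXNRD1. The limma adjusted p-values of the 8 differences with all arrays ran from 2.6e-10 to 0.011.

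**Figure D4:**
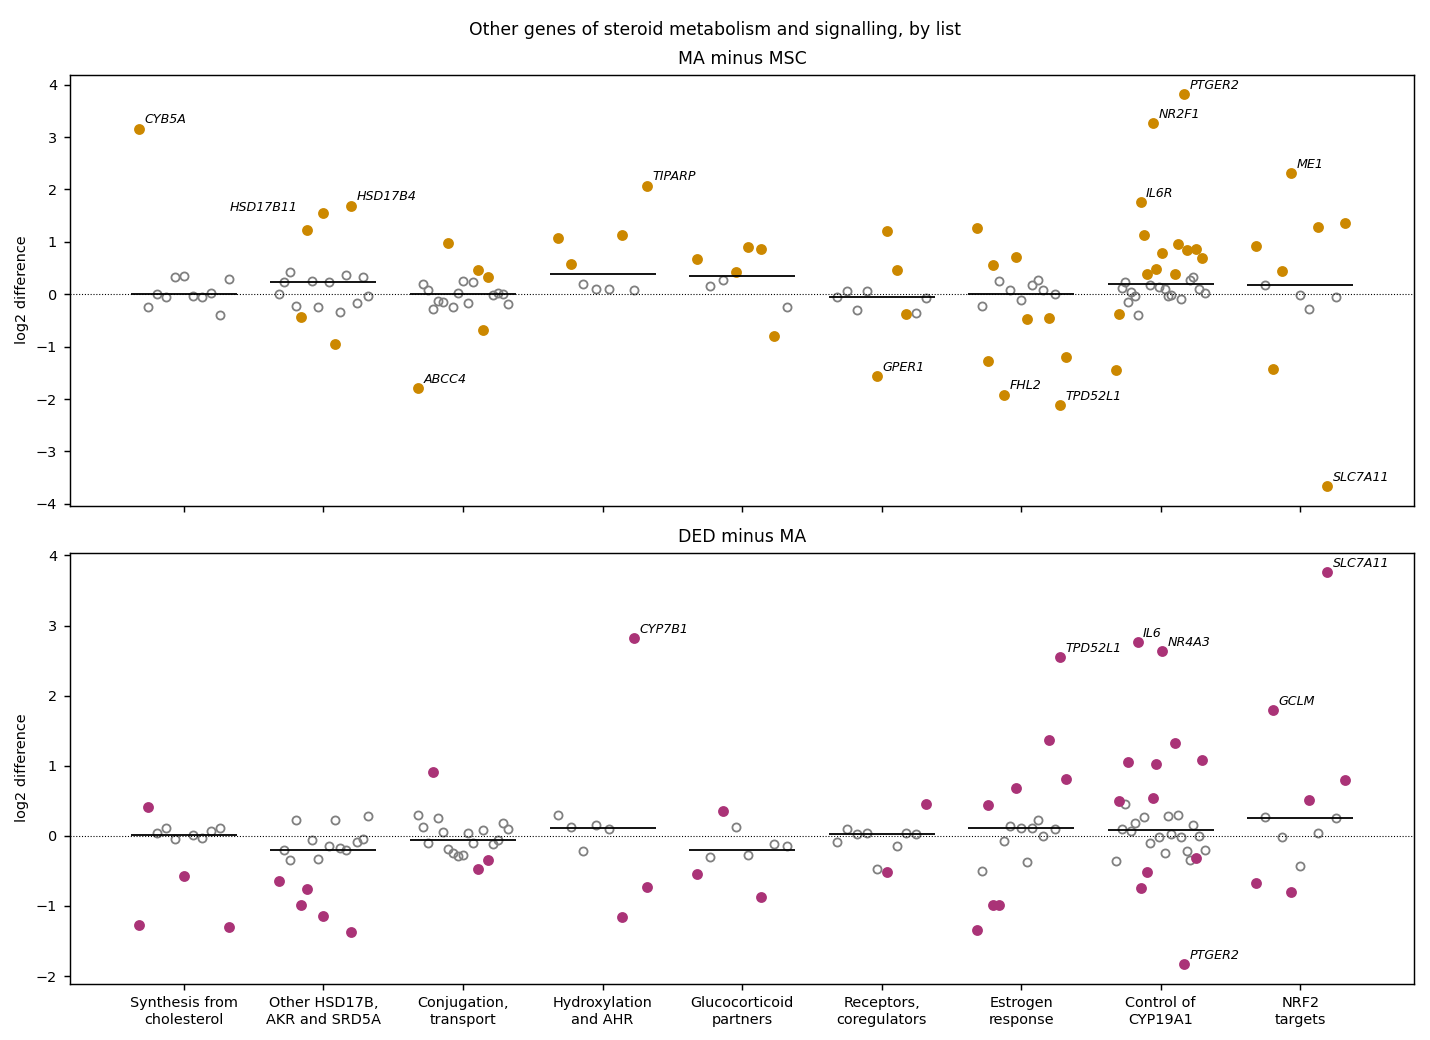
Log2 differences (vertical axis) of the 131 other genes in 9 lists (horizontal axis), for MA minus MSC above and DED minus MA below. Filled points passed limma at an adjusted p under 0.05, open grey points did not, black bars are list medians, and genes past the test with a difference over 1.5 are named. Filled points lie on both sides of 0 in both panels.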

How the data were processed

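Each of 15 single-colour arrays held 1 sample, 5 per group, and titles gave the groups. Log2 intensities per probe set were deposited by the authors as 1 table. The submitters' processing notes name Transcriptome Analysis Console and RMA. Versions, the RMA variant and the build of the probe sets were not given in the sources used here. RMA normalizes between arrays, so a shift shared by all genes cannot be read. Of 24351 probe sets 17709 had 1 symbol, and for 20 genes with several the one with the highest mean was kept, which left 17687 genes.

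Tests used limma (3.58.1, R 4.3.3; lmFit, then eBayes) in 1 fit of all 15 arrays without covariates, two-sided, with Benjamini-Hochberg adjustment over 17687 genes and a threshold of 0.05. Each mean has its SD (n = 5), and each difference a moderated SE. The number of arrays limits the precision. The fit was tested on simulated data: for MA against MSC, 64% of the genes made to change 1.5-fold were called, 100% of the 2-fold ones, and 7 genes that had no change. For DED against MA these were 40%, 94% and 9 genes. Far fewer genes were made to change there than were called in the data (5844 in MA against MSC and 4587 in DED against MA). The simulated shares and false calls therefore do not give the number of false calls in these data. The members and lists were chosen with earlier results of these data known. Named genes were the 10 steroid genes, the 5 most like CYP19A1, up to 3 largest rises and falls per list among genes past the test, and fixed genes. AKR1C4, CD14, PTPRC, GREB1, TFF1, STAT3, JAK1, SOCS3, NR4A1, NR4A2, CRTC1, CRTC2 and CRTC3 were named after their values were seen. The alternatives were other normalizations, filters on dim genes, probe set rules, variance models, array weights, only the compared groups in the fit, a block on the replicate number, and leaving out single arrays. Leaving out DED arrays 1 and 3 together was added after seeing the data. Figures used Python 3.11.15 and matplotlib 3.10.9.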

Additional observations from a re-analysis of the deposited data

Results flagged for a closer look

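In groups of 5 arrays, 15 of 246 gene and group pairs held 1 array far from the others, and chance gives about 1 in 20. CYP19A1 read 5.74 in MSC array 1, against 6.13 to 6.28 in the other MSC arrays, and ESR1 read 5.19 in MA array 4, against 4.56 to 4.67. Among the other genes named, the single DED arrays were HSD17B11 at 10.39 in array 3, ABCC4 at 6.93 in array 4, CEBPA at 5.78 in array 1 and CA12 at 8.31 in array 2. In MSC they were CYP11A1 at 5.41, CD163 at 6.69 and TFF1 at 5.28 in array 3, STAR at 7.42, NR5A2 at 5.14 and CEBPD at 3.96 in array 4, and CTSD at 14.86 and IL6ST at 13.30 in array 2. TFF1 also stood apart in MA, at 5.16 in array 3. HSD17B11 without DED array 3 differed between DED and MSC (adjusted p = 0.0010), where it did not with all arrays (0.087).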

How the results depend on the processing

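The 8 calls among the 10 steroid genes in MA against MSC held under all 26 alternatives. SRD5A1 and ESR1 missed the threshold in the 25 and 24 that kept them, and the 20 differences of DED moved by less than 1 SD. Over the wider lists the count of falls in DED against MA was 15 in place of 24, and in DED against MSC 12 in place of 19, when genes with no group mean at the 95th percentile of the negative controls were left out, which tests fewer genes. With the same genes left out, MA against MSC had 25 rises in place of 37 and 13 falls in place of 17. Rises in DED against MA were then 21 in place of 22. The likeness list shared 3 of its 5 genes without DED arrays 1 and 3. The replicate number did not pair the arrays (correlations of deviations from -0.108 to 0.087 over 15 pairs), and with the replicate block 8 of the 10 steroid genes still passed in MA against MSC. With each array left out the wider counts ran from 34 to 38 rises and 15 to 18 falls in MA, 19 to 23 and 21 to 26 in DED against MA, and 33 to 38 and 18 to 21 in DED against MSC. No result reversed. Signal under 8.31 in at least 1 group limits the sizes given for CYP19A1, SRD5A1, ESR1, STS, HSD11B1, CYP1B1 and others such as PTGER2, NR4A3 and CYP7B1, and 79 of the 131 other genes were under it in all 3 groups.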
